A study of Oniscidea with 6 samples.

Results

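Coiled-coil, centrosomal and ciliary genes were taken as the features whose mouse symbol begins with Ccdc, Cep, Cfap, Ift, Bbs or Poc followed by a number, with Poc limited to Poc1 and Poc5. The rule found 224 of the 24421 features in the table: 146 Ccdc, 36 Cep, 17 Cfap, 14 Ift, 8 Bbs and 3 Poc symbols. Libraries of poly(A) RNA were made from untreated, fresh tissue of woodlice (Oniscidea, terrestrial isopod crustaceans). The groups were 3 samples labelled rolling and 3 labelled stretching, and the data columns headed curl and strait were read as these groups from the meaning of the words. Species, genotype, tissue, sex, age and the number of animals are not given in the labels, so no tissue label could be checked against markers. Nothing says that samples came from separate animals, so the spread behind the p-values is that of these samples and may be technical. Reads were counted under mouse gene symbols, and a symbol here is only the mouse name under which woodlouse reads were counted, not a known woodlouse gene. All roles given below are those of the vertebrate genes, mostly from mouse and human.

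Centrioles are barrels of microtubules that organise the centrosome and, when docked at the membrane, become the basal bodies from which cilia grow. A cilium has a microtubule core, the axoneme, which in motile cilia carries dynein arms, radial spokes and a central pair, and it is built by intraflagellar transport, in which trains of Ift proteins move cargo along the axoneme and the BBSome carries membrane proteins. Cep proteins belong to the centrosome, Cfap proteins to cilia and flagella, Ift proteins to the trains, Bbs proteins mostly to the BBSome and Poc proteins to the centriole. Ccdc only means that a coiled-coil domain was predicted, and these proteins work in many parts of the cell. In arthropods, cilia are known mainly from sensory neurons and, in many insects, from sperm tails.

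The libraries held 403971 to 1122154 counted reads, and the members took 2.44% to 6.10% of them in rolling and 0.126% to 0.186% in stretching. Values are normalised read counts, which are reads divided by 1 size factor per library. Reads were found for 202 members in at least 1 library and for 43 members in all 6. No read was found for 22 members, or 9.82%, against 25.2% of all features. A mean of at least 10 over the 6 libraries was needed for testing, which left 38 members (17.0%, against 12.1% of all features), while 164 had reads but a lower mean. The tested members were 25 Ccdc, 7 Cfap, 5 Cep and 1 Poc gene, and no Ift or Bbs gene reached this level.

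**Figure D1:**
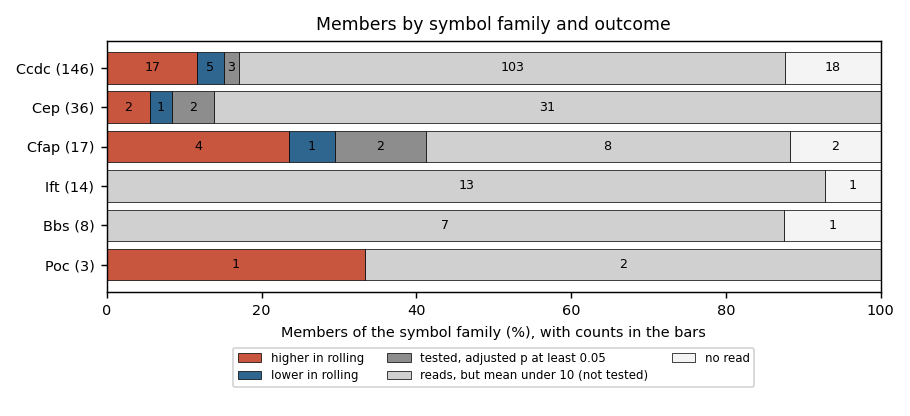
Share of each symbol family (x axis, percent of its members, with counts printed in the bars) by outcome; the family size stands beside the name. Tested genes made up 7 of 17 Cfap and 25 of 146 Ccdc genes, and none of the 14 Ift and 8 Bbs genes.

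Of the 38 tested members, 24 rose and 7 fell in rolling relative to stretching, and 7 did not pass the test (limma on log2(value + 1), two-sided, Benjamini-Hochberg adjusted p under 0.05 over all 2948 tested features). Across all tested features 75.2% passed, 37.8% higher and 37.4% lower in rolling, so the share of members called (81.6%) lay near the background while the split by direction was less even. The median log2 fold change was 2.52 in the tested members and 0.10 in all tested features. The 2 groups were fully apart for 32 members, against 78.7% of all tested features. All rolling values lay above all stretching values for 25 of these (background 39.8%), and below them for 7 (background 38.8%). At least 30 reads in rolling and at most 3 in stretching were found for 12 members (background 12.7%), and the reverse for 4 members (background 11.7%). The filter shapes these counts, because it favours a difference in a gene that reached the level through 1 group only. Ccdc14, Cep120 and Cfap36 reached it in this way and were not called. Of the 38 members, 24 had a mean of 10 or more in rolling only, 6 in stretching only and 8 in both groups. Across all 2948 tested features, 1070 reached it in rolling only, 1033 in stretching only and 845 in both. Of the members at that level in both groups, Ccdc6 and Cep350 rose and Ccdc180 and Cep89 fell. The others, Ccdc55, Ccdc70, Cep290 and Cfap43, were not called. Among the 164 members with reads below the level, the mean was higher in rolling for 87 (53.0%, against 51.2% of all such features) and higher in stretching for 77. Less RNA per cell and fewer cells of a type cannot be told apart in such bulk samples.

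**Figure D2:**
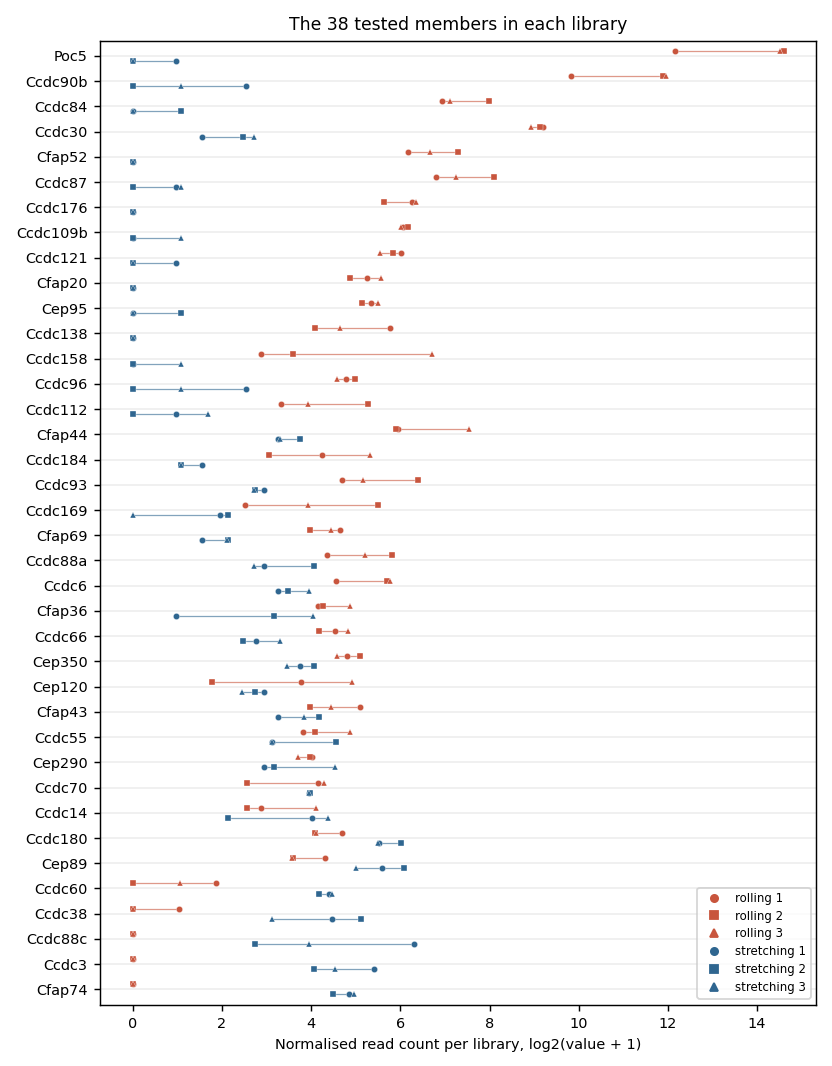
Normalised read count of the 38 tested members in each of the 6 libraries, as log2(value + 1), ordered by fold change; colours are the groups, symbols the replicate numbers, and lines join the lowest and highest library of a group. Most of the upper rows have rolling libraries far to the right of stretching libraries, and 7 rows at the bottom have the reverse.

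Poc5, a centrin-binding protein of the inner wall of centrioles, carried most of the members' reads in rolling. Its normalised read count was 4601, 24845 and 23407 in rolling 1 to 3, and 1 read in stretching 1 was the only one of the stretching group. In normalised values rolling 1 was therefore several times below the other rolling libraries, while all 3 lay far above stretching. As a share of counted reads, Poc5 took 1.62%, 4.87% and 1.92% in rolling 1 to 3, so that rolling 1 lay close to rolling 3. Poc5 held 60.5%, 79.8% and 78.7% of the reads of all members in rolling 1 to 3. Its log2 fold change was 13.44 (standard error 0.65, limma adjusted p 5.7e-07), and 14.23 without rolling 1. The other Poc genes, the WD-repeat centriole proteins Poc1a and Poc1b, had 1 read and 3 reads in all. The next largest holder of reads was Ccdc90b, with 12.0% to 13.3% of the members' reads in each rolling library. Summed over the members other than these 2 genes, which were set aside after their values were seen, the level was 2312 ± 205 in rolling and 804 ± 45.2 in stretching (mean ± SD, n = 3). Ccdc30 alone had a mean of 546 in rolling. As a share of counted reads, the remaining members took 0.735%, 0.488% and 0.193% in rolling 1 to 3. In stretching 1 to 3 the share was 0.183%, 0.186% and 0.126%, so on this scale rolling 3 lay close to stretching 1 and 2.

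All 36 Cep genes had reads, and 5 were tested, of which 2 rose and 1 fell in rolling. Cep95, a centrosomal protein, stood at 39.5, 34.3 and 44.6 in rolling 1 to 3 and had a single read, in stretching 2, in the stretching group. Adjusted for depth, its reads were 112-fold higher (95% interval from counting, 19.8 to 4459), and its log2 fold change was 4.97 (standard error 0.44, limma adjusted p 8.8e-06). The 3 rolling values lay close together and apart from stretching. Cep350, which anchors microtubules and stabilises centrioles, stood at 26.9, 33.1 and 22.8 in rolling and at 12.5, 15.9 and 9.97 in stretching. Its groups did not overlap, and its log2 fold change was 1.06 (standard error 0.37, limma adjusted p 0.027). This call was lost without rolling 2, stretching 1 or stretching 3 (limma adjusted p 0.059, 0.063 and 0.077), also with the tested genes held fixed (0.058, 0.060 and 0.075). It was lost as well without a filter (0.067), with library totals as the scale (0.30), with DESeq2 (0.12), with edgeR (0.064) and with the replicate number as a block (0.052).

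Cep89, a protein of the distal appendages with which a centriole docks at the membrane, moved the other way. It stood at 19.0, 11.0 and 10.9 in rolling and at 47.0, 66.8 and 31.0 in stretching, and every stretching library lay above every rolling one. The log2 fold change was -1.73 (standard error 0.42, limma adjusted p 0.0044). Cep290, which builds the gate at the ciliary base and is mutated in Joubert syndrome, had 15.3, 14.7 and 12.0 in rolling and 6.71, 7.93 and 22.2 in stretching, so that the groups overlapped (limma adjusted p 0.54). Cep120, needed for centriole elongation, stood at 12.6, 2.45 and 29.3 in rolling and 6.71, 5.66 and 4.43 in stretching. It was not called (limma adjusted p 0.34), but was at adjusted p 0.021 without rolling 2. Of the 31 Cep genes under the level for testing, 19 had the higher mean in rolling and 12 in stretching. The authors' deposited table called 4 of these 31, Cep41, Cep78, Cep170 and Cep170b, all higher in rolling. That is 4 of the 19 with an adjusted p there, or 21.1%, against 24.8% of all features under the level for testing (12.3% higher and 12.5% lower in rolling). Cep83 had 21 reads in rolling and 2 in stretching, and Cep83os, the transcript antisense to it, had 5 and 1; strand use in the counting is not stated, so their reads cannot be told apart. Cep170 and Cep170b are paralogues, and the sources used here do not say how reads matching both were counted.

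Of the 7 tested Cfap genes, 4 rose, 1 fell and 2 did not pass. Cfap52 and Cfap20, both proteins inside the doublet microtubules of the axoneme, had no read in stretching. Cfap52 stood at 71.2, 157 and 99.98 in rolling 1 to 3, which is at least 92.1-fold above the floor of 3 reads over the stretching group, with a fitted log2 fold change of 6.71 (standard error 0.43, limma adjusted p 1.9e-06). Cfap20 stood at 36.9, 28.2 and 46.7, at least 35.3-fold above that floor, with a fitted log2 fold change of 5.23 (standard error 0.38, limma adjusted p 3.3e-06). For both genes all rolling libraries had reads, and no stretching library did.

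Cfap43 and Cfap44 belong to a complex that tethers an inner dynein arm to the axoneme in Chlamydomonas and Tetrahymena. Cfap44 stood at 60.6, 58.8 and 186 in rolling and 8.62, 12.5 and 8.86 in stretching, a log2 fold change of 3.02 (standard error 0.49, limma adjusted p 0.00042). Cfap43 stood at 33.2, 14.7 and 20.6 in rolling and 8.62, 17.0 and 13.3 in stretching, with overlapping groups (log2 fold change 0.74, SE 0.44, limma adjusted p 0.15). Whether their changes differ from each other was not tested. Cfap69, needed for sperm tails and for the kinetics of olfactory cilia in mouse, rose from 2.88 ± 0.834 to 19.9 ± 4.83 (mean ± SD, n = 3), a log2 fold change of 2.42 (standard error 0.41). Cfap36, which binds the ciliary GTPase Arl3, stood at 16.9, 18.4 and 28.3 in rolling and 0.958, 7.93 and 15.5 in stretching. Its groups did not overlap but it missed the threshold (limma adjusted p 0.057), and it passed at adjusted p 0.021 without stretching 3 and 0.012 with the replicate number as a block.

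Cfap74, a protein of the central pair, was the tested Cfap gene that fell. It stood at 27.8, 21.5 and 29.9 in stretching and had no read in rolling, at least 32.1-fold below the stretching group, with a fitted log2 fold change of -4.76 (standard error 0.36, limma adjusted p 3.5e-06). Without stretching 3 its mean was under the level for testing. Of the 8 Cfap genes with reads under that level, 6 had an adjusted p in the authors' deposited table. It called 3 of these (50.0%, against 24.8% of all such features), Cfap70 as higher and Cfap57 and Cfap221 as lower in rolling. Cfap57 had 1 read in rolling and 35 in stretching, and Cfap70 had 57 and 3.

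**Figure D3:**
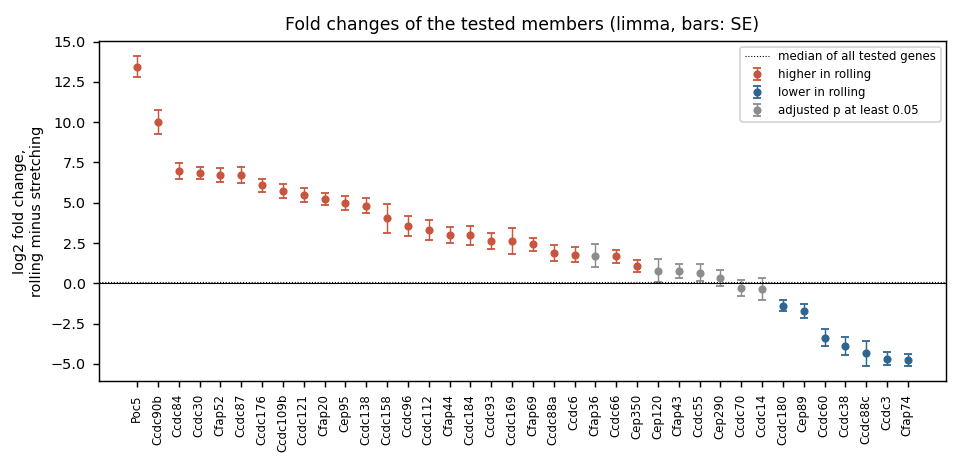
Log2 fold change (rolling minus stretching, on log2(value + 1)) of the 38 tested members with its standard error from limma; red passed the test as higher, blue as lower, and grey did not pass. The dotted line is the median of all tested features, 0.10; the values run from 13.44 for Poc5 to -4.76 for Cfap74.

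Of the 14 Ift genes, 13 had reads and none reached the level for testing, so that tests of single genes come from the authors' deposited table. Of the Ift genes, 5 were called there, 2 higher and 3 lower in rolling, out of 11 with an adjusted p. Across all features with an adjusted p the same table called 37.2%, 18.7% higher and 18.5% lower, and of those under the level for testing it called 24.8%. Ift27, a small GTPase of the IFT-B train, stood at 7.38, 25.7 and 26.1 in rolling 1 to 3 and had no read in stretching. That is at least 15.3-fold above the floor of 3 reads over the stretching group, with an adjusted p of 4.9e-05 in the authors' deposited table. Its mean of 9.86 lay just under the level for testing. Ift122, of the IFT-A train that returns cargo to the ciliary base, had 26 reads in rolling and 1 in stretching, or 20.2-fold after adjusting for depth (95% interval from counting, 3.33 to 829.9; adjusted p 0.033 in the authors' deposited table).

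Ift74 and Ift81 bind each other in the IFT-B train and together hold tubulin. Ift74 stood at 5.75, 11.3 and 18.8 in stretching and had a single read, in rolling 1, in the rolling group, with an adjusted p of 0.0021 in the authors' deposited table. Ift81 stood at 6.71, 14.7 and 11.1 in stretching and at 1.58, 1.22 and 1.09 in rolling (adjusted p 0.019 in the authors' deposited table). For both partners every stretching library lay above every rolling one. Ift22, another GTPase-like subunit, stood at 4.79, 14.7 and 4.43 in stretching and had 2 reads, both in rolling 2, in the rolling group, with an adjusted p of 0.050 in the authors' deposited table, just under the threshold. The other 8 Ift genes with reads, Ift20, Ift46, Ift52, Ift57, Ift80, Ift88, Ift140 and Ift172, had group means of at most 6.70. Of these, Ift20 and Ift46 had no adjusted p in the authors' deposited table, and the rest were not called there. Over all Ift genes the summed value was 45.4 ± 13.1 in rolling and 50.7 ± 8.91 in stretching (mean ± SD, n = 3), so the totals differed by less than the spread between replicates while single genes went in both directions.

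The 8 Bbs genes had 17 to 46 reads per library in all, and none was tested. Bbs4, the subunit that links the BBSome to centriolar satellites, stood at 7.67, 6.79 and 7.75 in stretching and at 1.05, 1.22 and 0 in rolling. It was the only Bbs gene called in the authors' deposited table (adjusted p 0.042), as lower in rolling. That is 1 of 6 with an adjusted p there, or 16.7%, against 24.8% of all features under the level for testing. Bbs2 and Bbs9, which are core BBSome subunits, and Bbs10, a chaperonin-like assembly factor, had a higher value in every rolling library than in any stretching library, on 8, 11 and 14 reads against 1 each. None of these 3 was called in the authors' deposited table, with adjusted p of 0.34, 0.24 and 0.10. Bbs7 stood at 10.5, 3.67 and 1.09 in rolling and 15.3, 9.06 and 5.54 in stretching, with overlapping groups. The summed Bbs value was 23.8 ± 0.50 in rolling and 21.0 ± 3.40 in stretching (mean ± SD, n = 3), a difference within the spread between replicates. In these libraries 3 reads correspond to a value of 1.58 to 3.67, so the values of the Bbs genes rest on few reads.

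**Figure D4:**
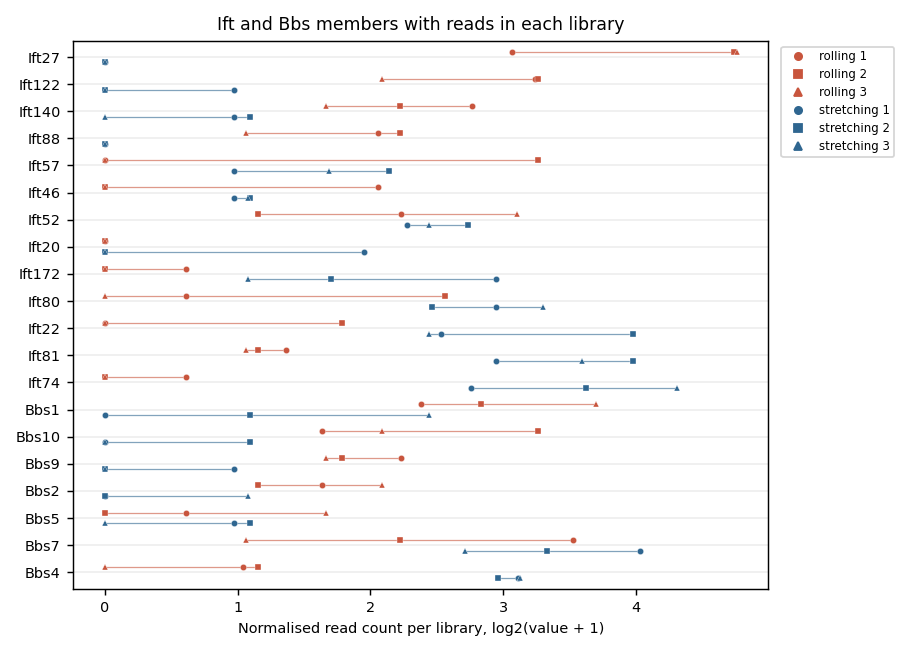
Normalised read count, as log2(value + 1), of the 13 Ift and 7 Bbs genes with reads in each library, ordered within a family by the difference of the group means; colours are the groups and symbols the replicate numbers. Ift27 is to the right in rolling, and Ift74, Ift81 and Bbs4 are to the right in stretching.

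Of the 25 tested Ccdc genes, 17 rose and 5 fell in rolling. The 33 Ccdc genes listed as known at the cilium or centrosome held 6 tested members, of which 4 rose and 1 fell, and the other 113 held 19, of which 13 rose and 4 fell. The median log2 fold change was 2.62 in the first list and 2.62 in the others. The listed and the other Ccdc genes thus had nearly the same split, and no test of a difference between them was made. The list is not complete, because Ccdc112, a protein of centriolar satellites, was counted among the others.

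Ccdc176, also called Bbof1, which aligns basal bodies in multiciliated cells, stood at 75.4, 49.0 and 80.4 in rolling and had no read in stretching. It was at least 66.7-fold higher, with a fitted log2 fold change of 6.08 (standard error 0.39, limma adjusted p 2.1e-06). Ccdc84, known from centriole duplication and the splicing of minor introns, stood at 121, 252 and 137 in rolling, with 561 reads there against 1 in stretching. Its depth-adjusted reads were 437-fold higher (95% interval from counting, 78.1 to 17282), and its log2 fold change was 6.98 (standard error 0.48, limma adjusted p 2.5e-06). Ccdc96, an axonemal protein, and Ccdc66, which acts at centriolar satellites and cilia, rose by 3.57 (standard error 0.62) and 1.67 (standard error 0.41) on the log2 scale. Ccdc96 stood at 4.24 without stretching 1 and 2.97 without stretching 2. The call of Ccdc66 was lost with scaling to library totals.

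Ccdc38, which is needed for sperm tails in mouse, was the listed gene that fell. It stood at 21.1, 34.0 and 7.75 in stretching and had 2 reads, both in rolling 1, in the rolling group. Stretching was 37.9-fold higher by depth-adjusted reads (95% interval from counting, 10.03 to 320.2), and the log2 fold change was -3.89 (standard error 0.57, limma adjusted p 0.00021). Ccdc14, a protein of centriolar satellites, had overlapping groups and was not called (log2 fold change -0.34, limma adjusted p 0.66). Its log2 fold change was -1.03 without stretching 2 and changed sign, to 0.10, without stretching 3 with the tested genes held fixed. Below the level for testing, the authors' deposited table called the listed Ccdc57, Ccdc146 and Ccdc181 lower and Ccdc105 higher in rolling. That is 4 of the 13 listed genes with an adjusted p there, or 30.8%, against 24.8% of all such features. Ccdc57 had no read in rolling and 31 in stretching, and Ccdc146 had 3 and 49.

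Of the Ccdc genes outside the list, Ccdc90b and Ccdc109b belong to mitochondria. Ccdc90b, a membrane protein related to a regulator of the calcium uniporter, stood at 909.7, 3799 and 3962 in rolling and at 4.79, 0 and 1.11 in stretching. Its log2 fold change was 10.02 (standard error 0.74, limma adjusted p 3.5e-06), and it was 10.72 without rolling 1, 10.69 without stretching 1 and 9.42 without stretching 2. Ccdc109b, also called Mcub, an inhibitory subunit of the same uniporter, stood at 65.4, 71.0 and 64.1 in rolling, with 241 reads against 1. Its depth-adjusted reads were 188-fold higher (95% interval from counting, 33.4 to 7442), and its log2 fold change was 5.72 (standard error 0.44, limma adjusted p 3.9e-06). In normalised values rolling 1 was again the lowest of its group for Ccdc90b, whereas Ccdc109b was nearly level over the 3 rolling libraries. As a share of counted reads, Ccdc90b took 0.320%, 0.744% and 0.325% in rolling 1 to 3. Ccdc109b had 124, 58 and 59 reads there, in libraries of 539367, 416821 and 1122154 counted reads, so it was not level by share.

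Ccdc30, whose function is little known, stood at 589.8, 557 and 490.1 in rolling and at 1.92, 4.53 and 5.54 in stretching, a log2 fold change of 6.85 (standard error 0.39, limma adjusted p 1.2e-06). Ccdc87, linked to male fertility in mouse, stood at 111, 275 and 150.0 in rolling with 574 reads against 2, or 223-fold after adjusting for depth (95% interval from counting, 61.6 to 1850). Its log2 fold change was 6.70 (standard error 0.49). For both genes the groups were far apart. Further Ccdc genes that rose were Ccdc121 and Ccdc138, by 5.48 and 4.83 on the log2 scale, with 209 and 136 reads in rolling against 1 and 0. Ccdc6, known as a fusion partner of the receptor Ret, rose by 1.78 (standard error 0.44), Ccdc93, of a complex that recycles membrane proteins from endosomes, by 2.62 (standard error 0.49), and Ccdc88a, the actin-binding protein Girdin, by 1.88 (standard error 0.52).

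Some calls rested on uneven libraries. Ccdc158 stood at 6.32, 11.0 and 103 in rolling and had 1 read in stretching, with a log2 fold change of 4.03. It was 4.79 without rolling 1. Without rolling 3 its mean was under the level for testing, and it was 2.87 with the tested genes held fixed. Ccdc169 stood at 4.74, 44.1 and 14.1 in rolling and 2.87, 3.40 and 0 in stretching. Its log2 fold change was 2.61, or 3.34 without rolling 1, and its call was lost without rolling 2 and without stretching 3 (limma adjusted p 0.071 and 0.082, with the tested genes held fixed). Ccdc112, a protein of centriolar satellites, and Ccdc184 rose by 3.29 (standard error 0.62) and 2.97 (standard error 0.58).

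Besides Ccdc38, the Ccdc genes that fell were Ccdc3, Ccdc88c, Ccdc60 and Ccdc180. Ccdc3, a secreted protein, stood at 41.2, 15.9 and 22.2 in stretching with no read in rolling, at least 33.0-fold lower there, and had a fitted log2 fold change of -4.67 (standard error 0.43, limma adjusted p 1.1e-05). Ccdc88c, or Daple, which binds Dishevelled in Wnt signalling, stood at 78.6, 5.66 and 14.4 in stretching with no read in rolling, at least 42.8-fold lower there. Most of that signal lay in stretching 1, and the fitted log2 fold change was -4.33 (standard error 0.78) with all libraries, -3.34 without that library, with the tested genes held fixed, and -5.13 without stretching 2. Ccdc88c and Ccdc88a are paralogues that went in opposite directions, and the sources used here do not say how reads matching both were counted.

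Ccdc60 stood at 20.1, 17.0 and 21.0 in stretching and at 2.64, 0 and 1.09 in rolling, a log2 fold change of -3.37 (standard error 0.51, limma adjusted p 0.00026). Ccdc180 stood at 24.8, 15.9 and 16.3 in rolling and 45.0, 63.4 and 44.3 in stretching, a log2 fold change of -1.38 (standard error 0.36, limma adjusted p 0.0065). Both genes had every stretching library above every rolling one, although with library totals as the scale Ccdc180 was not called (limma adjusted p 0.069). Ccdc55, or Nsrp1, a splicing regulator, stood at 13.2, 15.9 and 28.3 in rolling and 7.67, 22.6 and 7.75 in stretching and was not called (limma adjusted p 0.28). Ccdc70 stood at 16.9, 4.90 and 18.5 in rolling and between 14.4 and 14.7 in stretching, and was not called either (limma adjusted p 0.63).

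Genes of the same structures under other names were counted from lists that were chosen with earlier results of these data known. The counts are to be read beside the 75.2% of all tested features that were called. Of 11 tested axoneme and axonemal dynein genes, 3 rose and 6 fell. Dnah5, a heavy chain of the outer dynein arm, fell by 4.69 on the log2 scale (standard error 0.35), from 168, 179 and 253 in stretching to 5.27, 7.35 and 7.61 in rolling. Spag1, which helps assemble dynein arms, had 506 reads in stretching and 2 in rolling, or 325-fold after adjusting for depth (95% interval from counting, 89.5 to 2691). Of 12 tested centriole and centrosome genes outside the symbol rule, 3 rose and 6 fell. Cetn1, a centrin, a family that Poc5 binds, stood at 70.1, 182 and 58.7 in rolling with no read in stretching, at least 87.2-fold higher. Haus2, of the augmin complex that branches microtubules, had 1 read in rolling and 72 in stretching. The median log2 fold changes of these lists, -1.89 for the axoneme and -0.96 for centrioles and centrosomes, were below 0, and that of the tested members was 2.52; no test of this difference was made.

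Of 5 tested intraflagellar transport and BBSome genes under other names, 3 rose and 1 fell. Dync2h1, the heavy chain of the dynein that moves trains back to the ciliary base, stood at 319, 318 and 352 in rolling and 11.5, 17.0 and 13.3 in stretching, a log2 fold change of 4.49 (standard error 0.32, limma adjusted p 3.2e-06). Kif3a, a motor subunit that moves trains outward, stood at 22.2 ± 16.3 in rolling and 22.1 ± 3.92 in stretching (mean ± SD, n = 3) and was not called (limma adjusted p 0.71). Rab23, a GTPase acting at cilia, fell, with 1 read in rolling against 91. Of 5 tested genes of the transition zone, the gate at the ciliary base, 2 rose and 2 fell. Tmem231, a membrane protein of that gate, had 214 reads in rolling and 2 in stretching. Of the transcription factors of ciliogenesis only Rfx3 was tested, and it was not called (limma adjusted p 0.83).

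Markers of tissues that could carry cilia or dominate the RNA were also counted from lists chosen with earlier results known. Of all tested features 75.2% were called, 37.8% higher and 37.4% lower in rolling. Of 8 tested sperm and testis markers, 3 rose and 4 fell, and the summed list ranged from 507 to 624 in rolling and from 1284 to 2917 in stretching. The protamines Prm1 and Prm2 and the transition proteins Tnp1 and Tnp2, which define sperm chromatin, had no read in any library. Of 18 neuron markers 2 were tested, Unc13a and Tubb3, and both rose. The other 16 all had reads below the level for testing, with the higher mean in rolling for 8 and in stretching for 8. The authors' deposited table called 1 of the 14 with an adjusted p there, as lower in rolling. That is 7.1%, against 24.8% of all features below that level. The sum over the 18 genes, 700.5 to 1288 in rolling and 89.1 to 113 in stretching, was mostly Unc13a in rolling, at 490.2, 1139 and 649.9. Of 7 tested muscle markers, 4 rose and 1 fell, with sums of 14106 to 41662 and 5190 to 7145, and Ckm, Tnni2, Tnnt1 and Mylpf had no read. Their part in the results for the centriolar, ciliary and coiled-coil genes was not tested.

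**Figure D5:**
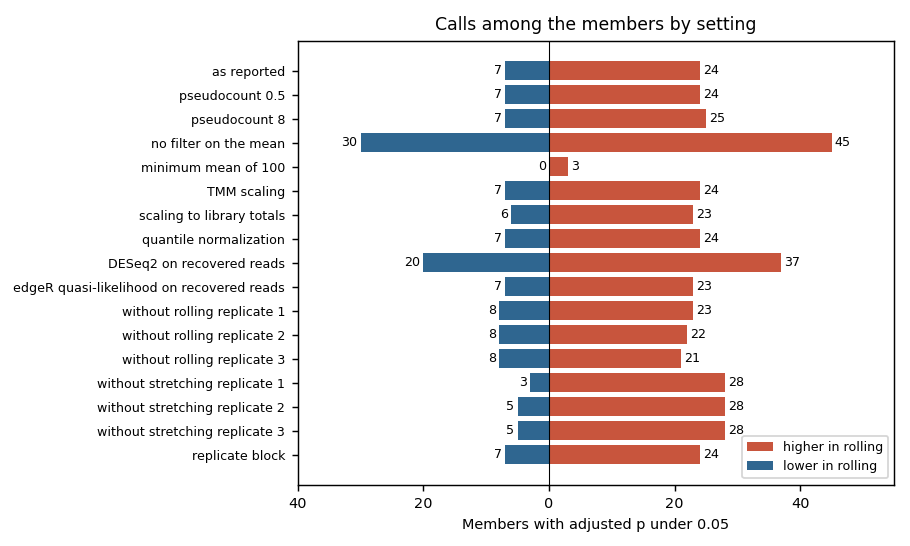
Number of members with adjusted p under 0.05 (x axis), higher in rolling to the right and lower to the left, in the reported fit and under each other setting. Higher calls outnumbered lower calls under each setting, with 45 against 30 when no filter on the mean was used and 3 against 0 with a minimum mean of 100. Of all features called, 50.7% and 51.8% were higher in rolling under these settings. That share was 43.8% to 45.5% without 1 rolling library and 55.1% to 57.0% without 1 stretching library. Wherever the filter on the mean was applied, it shapes these counts.

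The split between rises and falls differed between the tested members and those with fewer reads, a difference that was not tested. It was 24 against 7 in the tested members, and 37 against 20 among the 135 members with an adjusted p in the authors' deposited table. Among the members below the level for testing, that table called 14 higher and 13 lower in rolling, or 27.8% of the 97 with an adjusted p, near the 24.8% of all such features (12.3% higher and 12.5% lower). These calls were in the families described above and in further Ccdc genes. Of the 55 Ccdc genes below the level with an adjusted p, 7 were called higher and 7 lower in rolling. Among the higher ones, Ccdc172 and Ccdc174 had 66 and 65 reads in rolling and none in stretching. Among the lower ones, Ccdc97 and Ccdc34 had 41 and 44 reads in stretching and 0 and 2 in rolling. In all, 57 of 135 members (42.2%) were called in the authors' deposited table, against 37.2% of all features with an adjusted p. Without stretching 1 the number of lower calls was 3 in place of 7, because Ccdc3, Ccdc38, Ccdc60 and Ccdc88c no longer reached the mean for testing. Of all features called, 57.0% were higher in rolling without that library, and 50.2% with all 6. With the same tested genes held fixed, an alternative chosen after seeing the data, leaving out any 1 library gave 23 or 24 higher and 7 lower calls. With the filter taken anew, called genes whose mean fell under the level for testing without 1 of the other libraries were Ccdc60 and Ccdc38 (stretching 2), Ccdc60 and Cfap74 (stretching 3), Cfap69 (rolling 1 or 3), Ccdc138 (rolling 1), Ccdc112 and Ccdc169 (rolling 2), and Ccdc158 and Ccdc184 (rolling 3). With the tested genes held fixed, Ccdc169 and Cep350 were the called members that lost their call without 1 library.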

How the data were processed

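Poly(A) RNA-seq of 3 rolling and 3 stretching woodlouse samples was used. The deposited table, per the file headers, gives 1 signal value per gene and library (reads divided by a size factor) with the authors' results: mean signal, log2 fold change, its standard error, a test score, p-value and adjusted p-value. The submitters' processing notes name BWA, DESeq2 and mm10 without roles or versions, and no source used here names the counting program or annotation. Division of a column by its lowest non-zero value gave whole reads for 100% of values (tolerance 1e-04), 403971 to 1122154 per library, of which 40.1% to 79.5% lay on 20 features.

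Groups were compared with limma 3.58.1 (R 4.3.3; mean-variance trend) on log2(value + 1) for 2948 features with a mean of at least 10, two-sided, with Benjamini-Hochberg adjustment over all of them. Fold changes on this scale understate the change of low genes. Genes without reads in a group were compared with a floor of 3 reads over the group; genes with 1 to 3 reads were given a ratio with an exact 95% interval. Because PCR copies are not independent molecules, these intervals and floors cover counting error alone. Alternatives were a minimum mean of 100, no filter, pseudocounts 0.5 and 8, TMM, library totals, quantile normalization, DESeq2 1.42.0 and edgeR 4.0.16 on recovered reads, each library left out, and the replicate number as a block. The fit was also run on simulated data in which far fewer genes changed than were called here. That run therefore does not show how the fit behaves on these data. The named genes are, per family, up to 4 (Ccdc 6) called with the largest change in each direction and the 2 uncalled with the highest mean, and up to 2 per list of other ciliary genes; others were named after their values were seen, and 1 gene is not reported here. Members and lists were chosen with earlier results of these data known.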

Additional observations from a re-analysis of the deposited data

How the results depend on the processing

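The count of called members was 75 without a filter (45 higher, 30 lower; 9 Cep, 8 Cfap, 47 Ccdc), 3 with a minimum mean of 100 (3 higher, 0 lower; 0 Cep, 0 Cfap, 2 Ccdc, where only 3 members were tested) and 57 with DESeq2 on the recovered reads (37 higher, 20 lower; 6 Cep, 8 Cfap, 36 Ccdc). Over all features, 5773 of 18260 were called without a filter, 50.7% of these higher in rolling. Of the members' calls there, among 202 tested, 60.0% were higher. With a minimum mean of 100, 284 of 323 features were called, 51.8% of these higher. With DESeq2, 50.3% of all features called were higher, and 64.9% of the members called. The filters change which genes were tested, and DESeq2 gave an adjusted p to 135 members. Its counts were those of the authors' deposited table, with 3951 of 10612 features called in both. DESeq2 is therefore not a separate check on that table. Leaving out each library, the called members numbered 29 to 33, with 21 to 28 higher and 3 to 8 lower. By family these were 2 to 3 Cep, 4 to 6 Cfap and 21 to 23 Ccdc genes, and Poc5 was called each time. Without 1 rolling library, 43.8% to 45.5% of all features called were higher in rolling, and 72.4% to 74.2% of the members called. Without 1 stretching library these shares were 55.1% to 57.0% and 84.8% to 90.3%. The log2 fold change of Ccdc70, not called, ran from -0.59 to 0.27 and changed sign without rolling 2; that of Ccdc14, not called, changed sign without stretching 3 with the tested genes held fixed (-0.34 to 0.10). The cause was not tested. Pseudocounts, TMM, quantile normalization and edgeR gave 30 to 32 calls, beside 2197 to 2256 among all features. Scaling to library totals gave 29, beside 2071 of 3158 features. That scaling shifted the median over all tested features by -0.16 on the log2 scale. Whole reads were recovered for 100% of values, and on them edgeR called 2244 features and DESeq2 3951. The replicate numbers are only shared numbers, with correlations of same-numbered deviations of 0.021, -0.0066 and 0.0087. With the replicate block 31 members were called, 24 higher and 7 lower, with 2 Cep, 6 Cfap, 22 Ccdc and 1 Poc gene. Over all features the block gave 2224 calls among 2948, of which 50.4% were higher in rolling. The Ift, Bbs and most Ccdc and Cep genes had few reads, 3 reads being a value of 1.58 to 3.67.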
